A study of Caenorhabditis elegans with 2 samples.

Results

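The regions described here are the candidate binding regions of MADF-2-GFP whose summit lay within 300 bp of an annotated snoRNA, snRNA or microRNA gene of *Caenorhabditis elegans*. A further 2 were left out because a tRNA gene also lay within this distance. The rule kept 329 of the 30000 regions in the list that the authors called on both replicates pooled. Of these, 184 had a snoRNA gene as the nearest gene of the 3 classes, 49 an snRNA gene and 96 a microRNA gene. The rule used position alone, and the signal of a region played no part in it. The study mapped MADF-2 on chromatin by immunoprecipitation and sequencing (ChIP-seq) in whole late embryos. All worms were of strain OP587, which has the genotype unc-119(tm4063) III; wgIs587 and stably expresses MADF-2 with a C-terminal GFP-FLAG tag, and the antibody was against GFP. Embryos of pooled sex were taken 3 hours after synchronization by bleaching, in 2 biological replicates of 1 group. There was no treated or mutant group, no untagged strain was analysed here, the promoter that drives the tagged protein is not given in the labels, and the cells of an embryo were not separated. Of the pooled regions, 772 passed the authors' reproducibility filter and are called optimal here. They were exactly the 772 of highest signal value, with 69.6 as the lowest of them and 69.5 as the highest of the others. The comparison of optimal with other regions is therefore one of strong with weak signal within 1 list. The signal value is the authors' own, its scale is unknown, and it was used only to rank and describe regions.

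Small nucleolar RNAs (snoRNAs) guide the methylation and pseudouridylation of ribosomal and other RNAs. Small nuclear RNAs (snRNAs) form the core of the spliceosome, and in worms the class also holds the spliced leader RNAs that are joined to the start of many mRNAs. MicroRNAs are cut from hairpin precursors and repress mRNAs that pair with their seed. Small RNA genes are read by RNA polymerase II or III, and tRNA genes, the model of the polymerase III class, carry their promoter inside the gene as an A box and a B box that transcription factor TFIIIC binds. MADF-2 carries a MADF domain, a Myb-like fold that binds DNA.

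Several of the snoRNA genes with the strongest optimal regions had upstream sequences with words of the kind found inside tRNA genes. Each line below gives the 80 bases before the annotated 5′ end of a snoRNA gene on the gene's strand, from the RefSeq sequence of the WBcel235 assembly, which is the ce11 build. Capitals mark matches to an A box word (GCNNAGNNG preceded by T and any base, where N is any base) and to a B box word (GTTCNANNC). The 5 genes were those with both words and the highest signal value on chromosomes II to V and X. W03C9.9 lies on II and its window is chrII:11960818-11960897, T03F7.8 on V has chrV:11314178-11314257, Y43F8C.22 on V has chrV:19643188-19643267 on the minus strand, F32E10.10 on IV has chrIV:7574042-7574121, and C04G6.12 on II has chrII:5105232-5105311 on the minus strand.
W03C9.9: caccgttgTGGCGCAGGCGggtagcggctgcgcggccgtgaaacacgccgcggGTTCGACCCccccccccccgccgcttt
T03F7.8: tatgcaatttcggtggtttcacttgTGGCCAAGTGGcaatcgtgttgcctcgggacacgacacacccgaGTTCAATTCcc
Y43F8C.22: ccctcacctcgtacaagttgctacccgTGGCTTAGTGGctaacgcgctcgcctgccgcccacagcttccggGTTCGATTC
F32E10.10: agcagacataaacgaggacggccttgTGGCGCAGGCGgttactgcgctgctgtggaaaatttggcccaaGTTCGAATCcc
C04G6.12: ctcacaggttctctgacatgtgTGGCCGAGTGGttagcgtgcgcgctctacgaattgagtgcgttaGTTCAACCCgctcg

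The strongest region of all 329 had 2 snoRNA genes of chromosome V in reach, C51F7.4 and C51F7.3. The window of C51F7.3, chrV:12303628-12303707 on the plus strand, runs through most of C51F7.4 and holds the B box word at 2 places, again in capitals. The region next in strength was at ZK994.7, whose window chrV:8500499-8500578 on the plus strand held neither box. Its capitals mark instead 2 words of 6 letters, AACCCG and TGTCGG, that recur upstream of snRNA genes.
C51F7.3: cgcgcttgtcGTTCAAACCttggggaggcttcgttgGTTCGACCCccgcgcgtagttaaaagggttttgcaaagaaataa
ZK994.7: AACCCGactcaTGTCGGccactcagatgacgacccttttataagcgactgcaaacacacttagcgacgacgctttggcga

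Of the 329 regions, 80 were optimal, a share of 24.3% (95% Wilson interval 20 to 29.2), against 2.57% of all pooled regions. All other pooled regions, away from both small RNA and tRNA genes, were optimal in 1.86% of cases (545 of 29275). Regions at tRNA genes had a share of 37.1% (147 of 396, 32.5 to 42.0). Intervals cover counting error only, and regions of 1 experiment are not independent replicates. The small RNA regions that were optimal were also strong within the optimal list. Their median signal value was 136, against 95.2 for all optimal regions. Of the 80, 63 fell in the stronger 386 optimal regions, and 29 of the 100 strongest pooled regions were at small RNA genes, 25 of them at snoRNA genes. Over all 329 regions the median signal value was 32.3, against 25 over all pooled regions, so most of them had weak signal.

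The replicates gave similar shares when each was ranked alone. Taking the strongest 772 regions of each replicate list, 74 of 325 small RNA regions were among them in replicate 1 (22.8%, 18.5 to 27.6) and 74 of 315 in replicate 2 (23.5%), against 2.57% of all regions in replicate 1 and 2.82% in replicate 2. All 80 optimal regions overlapped a listed region in both replicates, whereas 137 of the 249 other regions did. This is near what the reproducibility filter selects for, since 766 of all 772 optimal regions did so. Of all 30000 pooled regions 12541 did. The median rank of the 80 was 148 in replicate 1 and 162 in replicate 2, where rank 1 is the strongest. Of the 80, 67 were among the strongest 772 of both replicates and 79 among those of at least 1. The exception was R12E2.17, a snoRNA gene in an intron of the proteasome subunit gene rpn-8, with rank 1208 in replicate 1 and 784 in replicate 2. The replicates differed by more than 5-fold in rank at several of the weaker optimal regions. The snRNA gene sup-6 ranked 251 in replicate 1 and 6724 in replicate 2, and mir-54 ranked 219 and 2411. The snRNA genes C28A5.7 and F38E11.10 ranked 4075 and 3395 in replicate 1 against 287 and 386 in replicate 2, and the snoRNA gene F09G2.14 ranked 3281 against 304.

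**Figure D1:**
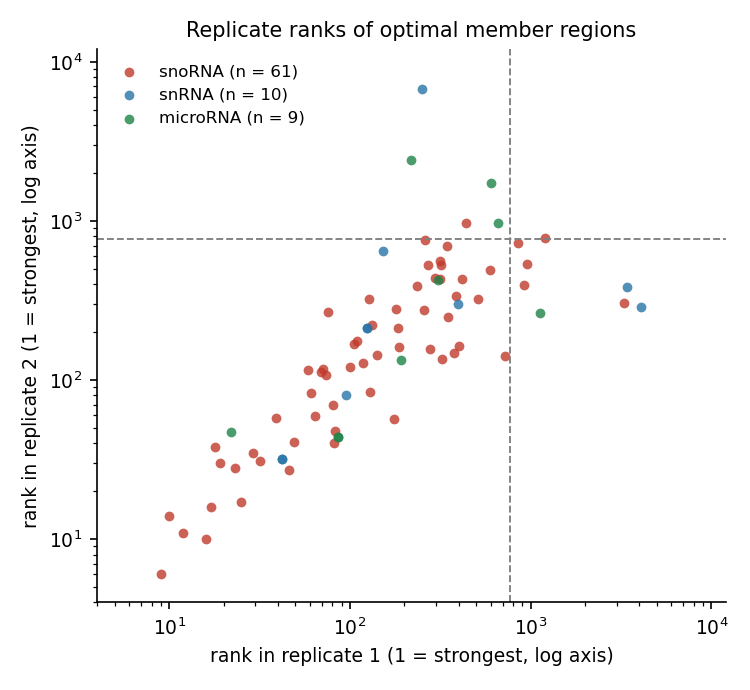
Rank of each of the 80 optimal small RNA regions in replicate 1 (horizontal) and replicate 2 (vertical), on log axes, coloured by class; dashed lines mark rank 772. The strongest regions lie close to the diagonal, and the scatter widens toward the dashed lines, with sup-6, mir-54, C28A5.7, F38E11.10 and F09G2.14 farthest out.

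The classes differed in how often their regions were optimal. Of the snoRNA regions 61 of 184 were optimal (33.2%, 26.8 to 40.2), of the snRNA regions 10 of 49 (20.4%, 11.5 to 33.6), and of the microRNA regions 9 of 96 (9.38%, 5.01 to 16.9), all above the 2.57% of the pooled list. The intervals of snoRNA and microRNA regions did not overlap, and that of snRNA regions overlapped both. The order was the same in each replicate: 28.1% of snoRNA, 19.5% of snRNA and 11.1% of microRNA regions in replicate 1, and 33.0%, 20.5% and 4.55% in replicate 2. For microRNA regions the replicate 1 interval, 5.96 to 19.8, lay above the 2.57% of that list. The replicate 2 interval, 1.78 to 11.1, included the 2.82% of all regions in replicate 2. Optimal regions had a median signal value of 157 at snoRNA genes, 111 at snRNA genes and 100 at microRNA genes. Counted by gene, 62 of 346 annotated snoRNA genes had an optimal summit within 300 bp (17.9%, 14.2 to 22.3), 8 of 129 snRNA genes (6.20%, 3.18 to 11.8) and 9 of 261 microRNA genes (3.45%, 1.82 to 6.42). The same count over every kind of nuclear gene was 1.71% (800 of 46890). Optimal regions near a tRNA gene were left out of it too, though tRNA genes are in the total, which lowers this share.

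**Figure D2:**
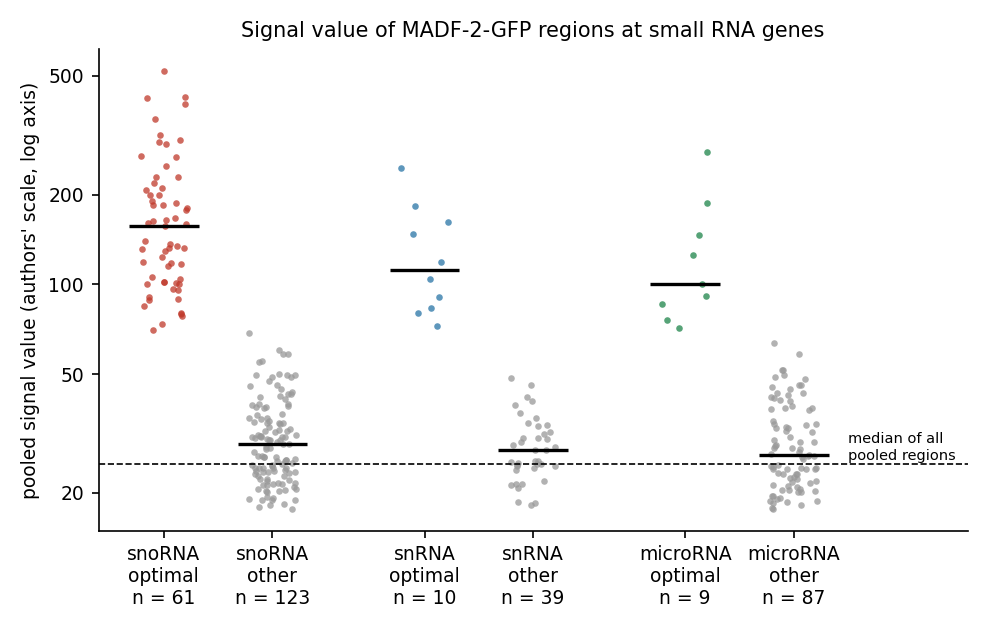
Pooled signal value (authors' scale, log axis) of each small RNA region, by class, with optimal regions in colour left of the others in grey; black bars are medians and the dashed line is the median of all pooled regions, 25. The snoRNA class holds the highest values, up to 519, and the medians of the optimal regions are 157, 111 and 100.

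Shares also differed by the side of the gene on which the summit lay. Regions with the summit upstream of the gene were optimal in 66 of 183 cases (36.1%, 29.5 to 43.2), those inside the gene in 8 of 62 (12.9%, 6.69 to 23.4) and those downstream in 6 of 84 (7.14%, 3.31 to 14.7), against 2.57% of the pooled list. The shares were 31.9%, 16.1% and 6.41% in replicate 1, and 36.7%, 11.5% and 6.82% in replicate 2. The contrast was widest at the snoRNA genes, where 56 of 119 upstream regions were optimal (47.1%, 38.3 to 56.0) and 2 of 40 downstream regions (5.00%, 1.38 to 16.5). For snRNA genes the counts were 4 of 16 upstream, 3 of 15 inside and 3 of 18 downstream, and for microRNA genes 6 of 48, 2 of 22 and 1 of 26, and the intervals overlapped.

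**Figure D3:**
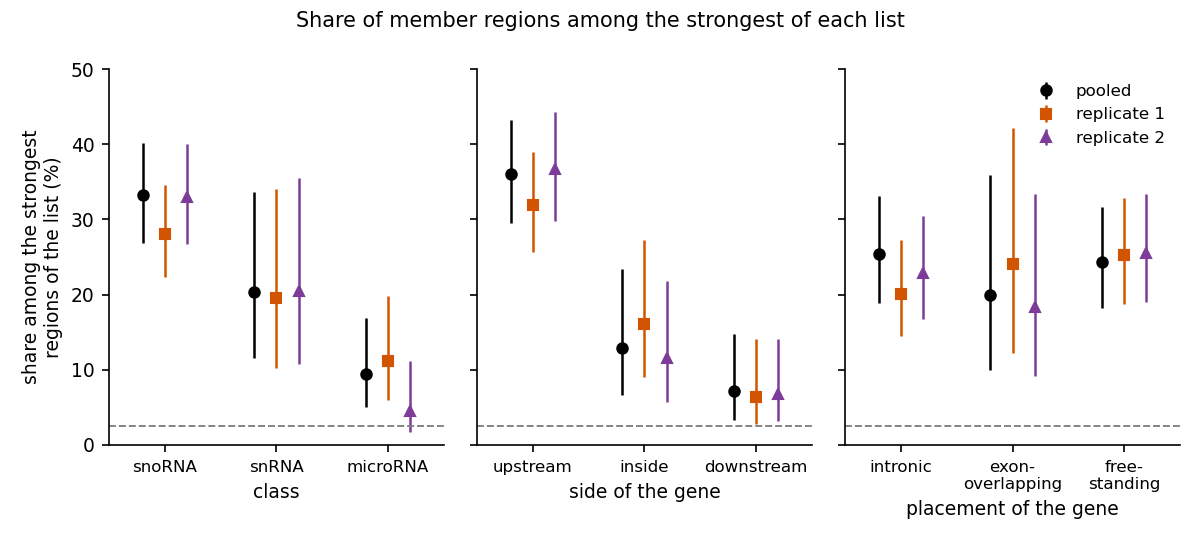
Share of small RNA regions (%) that were optimal in the pooled list or among the strongest 772 of a replicate list, by class, side and placement of the nearest gene; bars are 95% Wilson intervals and the dashed line is the 2.57% of the whole pooled list. The snoRNA and upstream shares stand highest in the pooled list and in each replicate, and the placements lie close together.

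At snoRNA genes the optimal summits sat in a narrow band just before the gene. Their median position was 49 bp upstream of the annotated 5′ end, with quartiles at 67 and 34 bp upstream. The other snoRNA summits had their median 4 bp upstream, with quartiles from 90 bp upstream to 164 bp beyond the 5′ end. Within 100 bp upstream lay 47 of the 61 optimal summits (77.0%) and 38 of the 123 others (30.9%). Read the other way, 47 of 85 snoRNA regions with a summit within 100 bp upstream were optimal (55.3%, 44.7 to 65.4), with 45 of 90 in replicate 1 and 47 of 71 in replicate 2 among the strongest, and 9 of 34 farther upstream were optimal (26.5%, 14.6 to 43.1). Optimal summits at snRNA genes lay within 100 bp upstream in 3 of 10 regions (30.0%). Their median was 74 bp beyond the 5′ end, as it was for the 39 other snRNA regions. The genes W05B2.8 and sls-2.1 each entered these 10 with an upstream and a downstream region. Optimal summits at microRNA genes had a median 74 bp upstream over 9 regions, with quartiles from 248 bp upstream to 94 bp beyond.

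**Figure D4:**
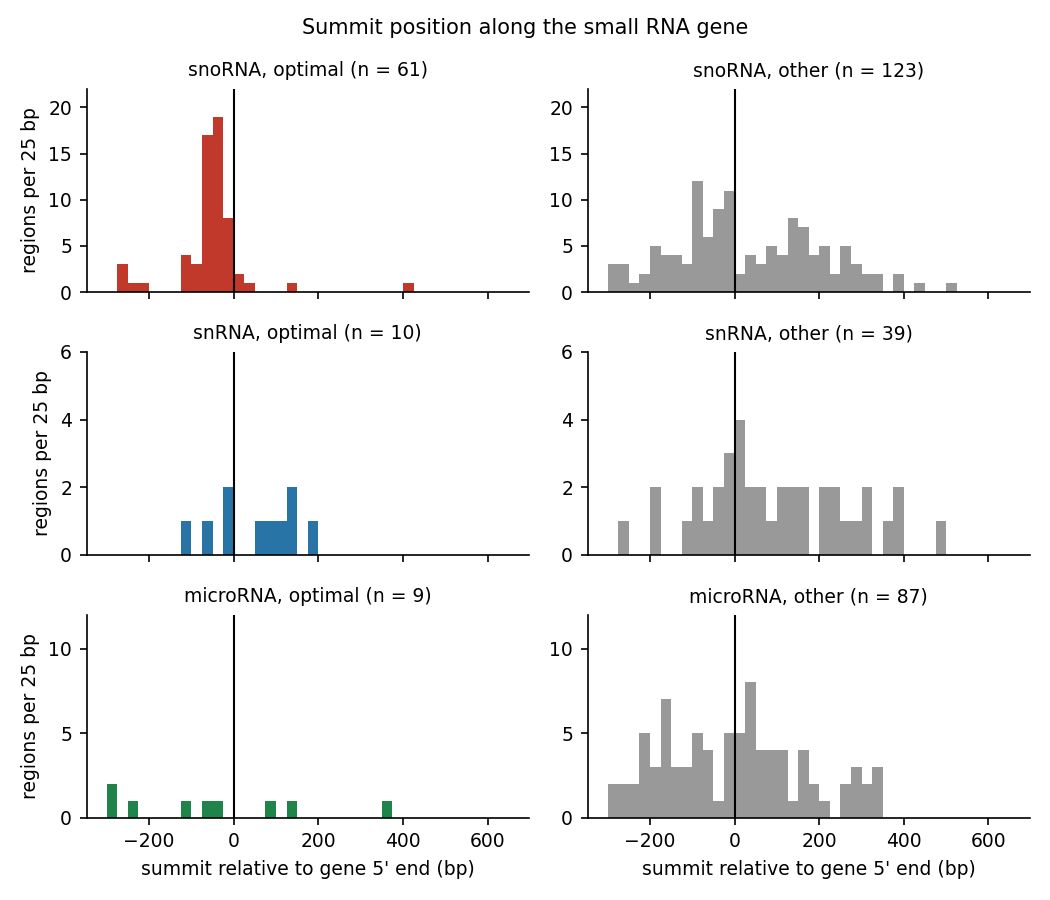
Number of regions per 25 bp by position of the summit relative to the 5′ end of the nearest gene (bp, negative is upstream), for each class, with optimal regions left of the others. Optimal snoRNA summits pile up in the last 100 bp before the gene (47 of 61), and the other panels are spread across the gene and both flanks.

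The snoRNA genes with the strongest regions were high in both replicates. C51F7.4, whose summit lay inside the gene 38 bp past its 5′ end, had a signal value of 519 in the pooled list, 265 in replicate 1 (rank 9) and 254 in replicate 2 (rank 6). The same summit lay 71 bp upstream of C51F7.3, the gene that follows it on the same strand. Both sit within frm-7, a gene for a FERM-domain protein, with C51F7.4 overlapping an exon and C51F7.3 in an intron. ZK994.7, in an intron of the peroxidasin gene pxn-1, had 425 in the pooled list with its summit 8 bp upstream, with 232 in replicate 1 (rank 12) and 200 in replicate 2 (rank 11). ZK265.10 on chromosome I had 422, with 246 and 178 in replicates 1 and 2 and the summit 68 bp upstream. Its summit also lay within 1000 bp upstream of the coding gene sre-23. W03C9.9 had 403, with 195 in replicate 1 and 210 in replicate 2 and the summit 91 bp upstream. T06C12.16 had 359 at 49 bp and T02E1.9 had 317 at 60 bp.

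Most of the next snoRNA genes in rank also had the summit shortly upstream. T03F7.8, in an intron of cutl-18 on the opposite strand, had a signal value of 304, with 179 in replicate 1 and 128 in replicate 2, and the summit 52 bp upstream. Y43F8C.22 had 301 at 45 bp, and ZK20.9 had 296 at 2 bp upstream. F32E10.10 had 270 at 76 bp, and C04G6.12, in an intron of the MAP kinase gene mpk-2 on the opposite strand, had 267 at 54 bp. The 12th, B0334.12, was the only one of these on the downstream side. It lies in an intron of the potassium channel gene twk-5, with its summit 129 bp past the 5′ end and a signal value of 249. Without C51F7.4, these genes ran from 120 to 246 in replicate 1 and from 116 to 210 in replicate 2. None of these 12 ranked below 46 in replicate 1 or below 38 in replicate 2.

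The A box and B box words were searched in the 120 bases upstream of every snoRNA gene. On the gene's strand the B box word was present at 23 of the 62 snoRNA genes with an optimal summit (37.1%, 26.2 to 49.5), at 10 of the 284 without one (3.52%, 1.92 to 6.36) and at 1.68% of 19973 protein-coding genes. The A box word was present at 23 of 62 against 9 of 284 (3.17%), and at 0.696% of protein-coding genes. Either word was present at 33 of 62 (53.2%, 41.0 to 65.1), against 18 of 284 (6.34%, 4.05 to 9.80), and both at 13 of 62 (21.0%) against 1 of 284 (0.352%). On the opposite strand either word was found at 2 of 62 genes with an optimal summit, against 10 of 284 without. These searches do not establish a site, and genes without a match lack only these letters.

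Seen from the sequence, 13 of the 14 snoRNA genes with both words had an optimal summit (92.9%, 68.5 to 98.7). The exception, Y59E1B.14, lies on the X chromosome. Of the 51 genes with either word 33 had one (64.7%, 51 to 76.4), and of the 295 with neither 29 did (9.83%, 6.93 to 13.8). Of the 18 genes with a word and no optimal summit, 7 had a region of any strength within 300 bp. The share among genes with a word was 19 of 31 in introns, 10 of 13 free-standing and 4 of 7 overlapping an exon. Genes with an optimal summit and either word had a median signal value of 164 at their best region (33 genes), and those with neither word 135 (29 genes). The strongest region, with 519, entered both groups, through C51F7.3 with a B box word and C51F7.4 with neither.

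The spacing of the boxes varied little. At the 23 genes with an optimal summit and an A box word, that word began a median of 60 bp upstream of the gene (45 to 75). At the 23 with a B box word, it began a median of 14 bp upstream (9 to 44). At the 13 genes with both, the distance between their starts was 43 to 52 bp with a median of 44. At 9 of these 13 the summit fell in the stretch from the start of the A box to the end of the B box. As a check on the words, the B box word was found inside 587 of 612 annotated tRNA genes (95.9%) and the A box word inside 261 (42.6%). The windows did not hold annotated tRNA genes within 300 bp of the summit, by the rule that chose the regions. An annotated pseudogene overlapped the window of 2 of the 62 genes with an optimal summit, D1046.6 (D1046.t1) and T08B2.13 (T08B2.t1), and of 3 of the 284 without.

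**Figure D5:**
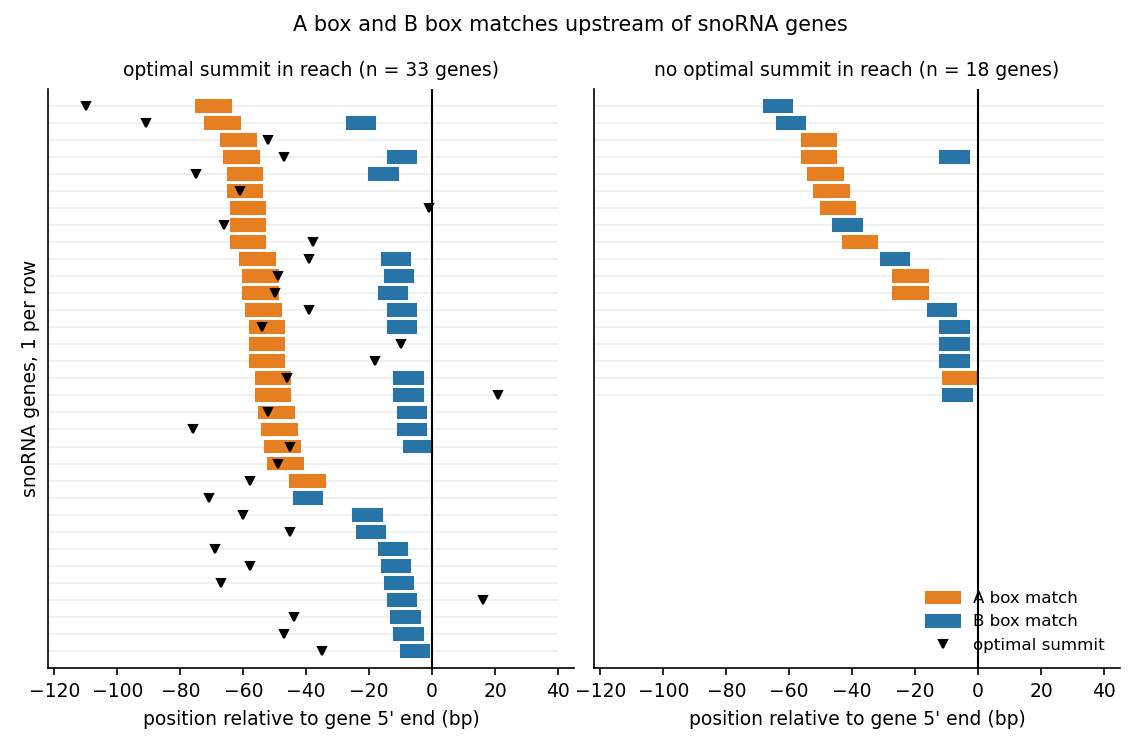
Positions of A box (orange) and B box (blue) matches relative to the 5′ end of the gene (bp), 1 snoRNA gene per row, for genes with an optimal summit in reach (left, 33 of 62 genes) and without one (right, 18 of 284 genes); triangles are optimal summits. In the left panel the A boxes line up around 60 bp and most B boxes around 14 bp upstream.

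The words were also counted around the region summits, without regard to the gene's ends. Optimal snoRNA summits lay a median of 49 bp upstream, so these windows overlap the upstream windows above and are not an independent check. Within 50 bases of the summit on either strand, the B box word was present in 21 of 61 optimal snoRNA regions (34.4%, 23.7 to 47.0), 5 of 123 other snoRNA regions (4.07%), 50.3% of 147 optimal tRNA regions, 2.57% of 545 optimal regions elsewhere and 3.99% of all pooled regions. The A box word was present in 37.7% of optimal snoRNA regions, 4.88% of other snoRNA regions, 40.1% of optimal tRNA regions, 3.85% of optimal regions elsewhere and 3.67% of all pooled regions. Within 100 bases the B box word was present in 44.3% of optimal snoRNA regions, against 93.9% of optimal tRNA regions and 8.08% of all pooled regions. The A box word within 100 bases was present in 41.0%, 48.3% and 6.54% of them. Within 25 bases the B box word was present in 1.64% of optimal and 3.25% of other snoRNA regions, and in 27.2% of optimal tRNA regions. The A box word at that distance was present in 27.9% of optimal and 1.63% of other snoRNA regions. Within 50 bases the word TATAAA did not separate optimal from other snoRNA regions, at 9.84% and 8.13%. The windows of optimal snoRNA regions were richer in G and C, with a median of 55.4%, against 45.5% in other snoRNA regions, 50.5% in optimal regions elsewhere and 43.6% in all pooled regions. The part of this difference in the word counts was not tested.

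Other features of the snoRNA genes also differed between the groups. A run of TTTT, the kind of sequence at which RNA polymerase III stops, followed within 20 bases of the gene end at 45 of the 62 genes with an optimal summit (72.6%, 60.4 to 82.1), against 100 of the 284 without (35.2%, 29.9 to 40.9) and 40.3% of protein-coding genes. The direction was the same at snRNA genes, with 4 of 8 against 32 of 121 (26.4%). It was also the same at microRNA genes, with 5 of 9 against 80 of 252 (31.7%), and in both classes the intervals overlapped. The snoRNA genes with an optimal summit were shorter, with a median length of 100 bp against 132 bp. Words of the 2 families of snoRNA were also searched at the gene ends. Most genes, 241 of 346, matched neither, so the counts do not sort the genes by family. Genes with boxes C and D at their ends (TGATGA in the first 20 bases and CTGA in the last 15) had an optimal summit in 5 of 14 cases. Genes ending in ACA within the last 8 bases had one in 20 of 91 (22%, 14.7 to 31.5), and genes with neither in 37 of 241 (15.4%, 11.3 to 20.4). The intervals of these 3 shares overlapped.

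Shares were close between genes inside and outside host genes. Regions at small RNA genes within an intron of a protein-coding gene were optimal in 36 of 142 cases (25.4%, 18.9 to 33.1), those at free-standing genes in 37 of 152 (24.3%, 18.2 to 31.7) and those at genes overlapping an exon in 7 of 35 (20%, 10 to 35.9). For snoRNA genes alone the shares were 34.5% in introns (29 of 84) and 34.2% free-standing (25 of 73). Upstream of the snoRNA gene they were 54% (27 of 50, 40.4 to 67.0) and 42.1% (24 of 57, 30.2 to 55.0). In replicate 1 the upstream order was turned, with 39.0% in introns and 45.3% free-standing, and likewise in replicate 2 with 48.9% and 57.8%. Of the 36 optimal intronic regions 1 lay in the promoter window of its own host, which reaches 1000 bp before the annotated start and 200 bp past it, and 4 lay in that of any protein-coding gene. The region in its host's promoter window was at F54E7.10, in the ribosomal protein gene rps-12. Over all placements 26 of the 80 optimal regions were in such a window (32.5%), against 67 of the 249 others (26.9%). The share of all pooled regions in such windows was not counted. These counts therefore do not show whether small RNA regions lie there more or less often than other regions.

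The host's strand gave a wider difference. Of the intronic snoRNA genes on the strand opposite to their host, 8 of 27 had an optimal summit (29.6%, 15.9 to 48.5), and on the same strand as the host 22 of 142 (15.5%, 10.5 to 22.3), with overlapping intervals. Exon-overlapping snoRNA genes had 4 of 12 on the opposite strand and 3 of 41 on the same strand. Free-standing snoRNA genes had 25 of 124 (20.2%, 14.0 to 28.1).

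No optimal region lay at a snoRNA gene of the X chromosome. None of the 33 annotated snoRNA genes on X had an optimal summit (Wilson upper limit 10.4%), and the other 5 chromosomes ranged from 14.8% on III (8 of 54) to 25.5% on V (14 of 55). By region, 0 of 13 snoRNA regions on X were optimal, against 61 of 171 on the other chromosomes (35.7%, 28.9 to 43.1). Replicate 1 had 1 of 15 snoRNA regions on X among its strongest, at K09E9.5, with a signal value of 41.7 and rank 736. That region ranked 21204 in replicate 2, where 0 of 12 were among the strongest. Of the 3 snoRNA genes on X with an A box or B box word, 0 had an optimal summit. Over all pooled regions 3.54% on X (177 of 5001, 3.06 to 4.09) were optimal, against 2.38% on the other chromosomes (595 of 24999). The interval of the 13 snoRNA regions on X, which reaches 22.8%, includes the 3.54% of that chromosome and lies below the interval of the snoRNA regions elsewhere. Of the other classes on X, 1 of 74 microRNA genes (1.35%), mir-54, and 0 of 3 snRNA genes had an optimal summit, and the low count on X was not tested as particular to snoRNA genes. Over the 3 classes together 1 of 31 regions on X was optimal (3.23%, 0.572 to 16.2), against 79 of 298 on the other chromosomes (26.5%, 21.8 to 31.8).

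Among the snRNA genes, which include the spliced leader RNA genes, 8 genes held the 10 optimal regions. W05B2.8, in an intron of the dynein heavy chain gene dhc-4, had 2 overlapping optimal regions with signal values of 246, the summit 13 bp upstream, and 162, the summit 189 bp past the 5′ end. Both overlapped the same region in each replicate, with 121 in replicate 1 (rank 42) and 126 in replicate 2 (rank 32). F54D8.7 had 104, with 52.1 in replicate 1 and 53.5 in replicate 2, and its summit lay 21 bp upstream. C28A5.7 had 83.6, with 25.1 in replicate 1 and 54.1 in replicate 2. The gene sup-6, named for suppressor mutations, had 80.2, with 64.1 in replicate 1 and 18.4 in replicate 2, and F38E11.10 had 72.5, with 26.4 and 47.7. W05B2.8, F54D8.7, C28A5.7 and F38E11.10 each have a copy of identical sequence elsewhere, and in all 44 of the 129 snRNA genes do, against 6 of the 261 microRNA genes and 0 of the 346 snoRNA genes. A read from such a copy may fit more than 1 place in the genome, and the authors' handling of these reads was not stated in the labels or files.

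The SL2 spliced leader genes, whose RNAs are joined to the downstream genes of operons, had an optimal summit at 3 of 18. The gene sls-2.4 had a signal value of 183, with the summit inside the gene, and 97.4 in replicate 1 and 89.2 in replicate 2. The gene sls-2.1 had 2 optimal regions at 148 and 90.6, with the summits 70 bp upstream and 133 bp past the 5′ end, both over regions of 88.3 in replicate 1 and 60.9 in replicate 2. The gene sls-2.2 had 119, with 80.6 in replicate 1 and 37.9 in replicate 2. In all, 11 of the 18 had a region of any strength. Of the 9 SL1 genes, which give the other leader, 0 had a region at all. All 9 have a copy of identical sequence elsewhere, against 0 of the 18 SL2 genes, and the part of this in the counts was not tested.

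The upstream sequences of chosen pairs of these snRNA genes show shared blocks. Other snRNA genes, including those without an optimal summit, were not compared in this way, and whether the blocks go with signal was not tested. Below are the 80 bases before W05B2.8 (chrIII:10989599-10989678, plus strand) and F54D8.7 (chrIII:5080899-5080978, minus strand), and before sls-2.1 (chrII:5844785-5844864) and sls-2.2 (chrII:5543518-5543597), both on the plus strand. Capitals mark runs of 8 or more bases that both members of a pair hold.
W05B2.8: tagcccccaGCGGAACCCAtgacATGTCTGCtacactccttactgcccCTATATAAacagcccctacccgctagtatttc
F54D8.7: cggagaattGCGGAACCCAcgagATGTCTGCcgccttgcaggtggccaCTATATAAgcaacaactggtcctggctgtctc
sls-2.1: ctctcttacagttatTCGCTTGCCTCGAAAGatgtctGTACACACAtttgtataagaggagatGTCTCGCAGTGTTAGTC
sls-2.2: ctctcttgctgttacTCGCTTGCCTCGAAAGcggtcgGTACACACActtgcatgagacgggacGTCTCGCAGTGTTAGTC

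The first pair shares 26 of 80 bases in such runs, at the same offsets, and the second pair 42 of 80. No A box or B box word is in these 4 windows of 80 bases. The snRNA genes as a class rarely held the words: in the 120 bases upstream on the gene's strand, either word was present at 1 of the 8 with an optimal summit, F54D8.7, and at 2 of the 121 without. The 6-letter words AACCCG and TGTCGG were the most frequent in the 100 bases upstream of snRNA genes. Either was present at 5 of the 8 with an optimal summit, 67 of the 121 without (55.4%) and 1.64% of protein-coding genes. They did not separate the snRNA genes by signal. Among snoRNA genes either word was present at 5 of the 62 with an optimal summit (8.06%) and 35 of the 284 without (12.3%), ZK994.7 being one of the 5.

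The microRNA genes with an optimal region were led by the mir-51 family, a group of microRNAs needed for embryonic development, which had 3 of its 6 members among them. The family shares its seed, bases 2 to 8, in capitals in the mature microRNAs below. The spans are from the RefSeq annotation of WBcel235, at chrIV:11026074-11026096 on the minus strand for mir-51, chrIV:14034024-14034047 on the plus strand for mir-52 and chrX:13145011-13145034 on the minus strand for mir-54.
mir-51: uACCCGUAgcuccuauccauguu
mir-52: cACCCGUAcauauguuuccgugcu
mir-54: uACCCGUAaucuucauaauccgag

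The gene mir-51 had a signal value of 278, with 165 in replicate 1 (rank 22) and 110 in replicate 2 (rank 47), and its summit lay 74 bp upstream. The gene mir-52 had 2 overlapping optimal regions at 187 and 126, with the summits 108 bp upstream and 94 bp past the 5′ end, and both overlapped regions of 100 in replicate 1 and 113 in replicate 2. The gene mir-54 had 86.1 with the summit 279 bp upstream, and the replicates were far apart at 68.2 and 24.6. The gene mir-53 carries the same seed and had a region of 39.1 that was not optimal, listed in replicate 1 and not in replicate 2. The genes mir-55 and mir-56, also with this seed, had no region within 300 bp. Both lie next to mir-54, downstream of it on the same strand. Their mature microRNAs with this seed are at chrX:13144842-13144864 and chrX:13144706-13144727, and the mir-54 summit is at chrX:13145373. They were thus beyond the reach of that summit, and are not separate loci without signal.

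The other optimal microRNA regions had signal values of 71.3 to 146. The gene mir-5549 had a signal value of 146, with 72.7 in replicate 1 and 72.1 in replicate 2. Its summit lay 33 bp upstream of the gene and in the promoter windows of eef-1A.1, for a translation elongation factor, and rfc-4, for a subunit of the replication clamp loader. A region of 100 had its summit downstream of mir-8186.1 and upstream of mir-8186.2, which overlap on opposite strands. It was counted as downstream, the side of its nearest gene, mir-8186.1. The gene mir-58.1, of the mir-58 family, in which 4 of 5 annotated genes had a region, had 91.4, with 36.1 in replicate 1 and 56.3 in replicate 2. The gene mir-90 had 76.0, with 43.4 in replicate 1 and 32.7 in replicate 2, and mir-8209 had 71.3, with 44.7 and 26.9. With 3.45% of all microRNA genes at an optimal summit, a count of 0 in the small families that follow is near that share and says little about them. Of the 4 genes of the let-7 family 2 had a region, let-7 with 34.9 at most and mir-241 with 30.1, and lin-4 had 17.8, none of them optimal. Of the 8 genes of the mir-35 family, expressed in embryos, 5 had a region and 0 an optimal one, and of 7 tissue-specific microRNAs 4 had a region and 0 an optimal one. These gene counts share regions. A region nearest to mir-40 had 4 genes of the mir-35 family in reach, mir-38 to mir-41. A region nearest to mir-42 also had mir-43 of the mir-2 family in reach. Of the mir-44, mir-46, mir-63 and mir-2 families 4 of 4, 1 of 2, 2 of 5 and 3 of 4 genes had a region, none of them optimal.

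The regions nearest the threshold were as follows. The weakest optimal snoRNA region, at R12E2.17, had a signal value of 70.6, and the strongest that were not optimal were at K02C4.8 with 68.6, C36E8.11 with 60.5 and F37F2.4 with 58.4. K02C4.8 and C36E8.11 also had their summits within 100 bp upstream, at 60 and 46 bp, and F37F2.4 had it 300 bp upstream. Among snRNA genes the weakest optimal region had 72.5, at F38E11.10, and the next values were 48.5 at sup-39, 46.1 at R07E5.16 and 42.1 at sls-2.2. Among microRNA genes the weakest optimal region had 71.3, at mir-8209, and the next values were 63.5 at mir-4929, 58.4 at mir-253 and 51.7 at mir-42.

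Some regions share a gene or lie on each other. Of the 329 regions 66 overlapped another of them, and the 80 optimal regions had 77 distinct nearest genes. In 20 of the 329 more than 1 small RNA gene was in reach, 2 of them optimal. At 14 of the 80 optimal summits, against 26 of the 249 others, another annotated RNA or pseudogene covered the summit, as the ncRNA F36H1.17 did at mir-51 and Y37A1B.330 at the stronger region of mir-52. The median width of a region was 396 bp among optimal and among other small RNA regions.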

How the data were processed

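The deposited region lists in ce11 coordinates were used: 1 per replicate, 1 for the pool and the optimal list (IDR). Per the deposited file records they were made from alignments with a control alignment; for the aligner, caller, settings and depth, nothing is given in the sources used here, and control libraries were not analysed here. Signal values are the authors', as deposited. The authors' deposited −log10 q-value was read but served no ranking, and each region was placed by its deposited summit offset. 14 mitochondrial regions of replicate 2 were left out.

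Genes came from Ensembl release 115, names and mature microRNAs from RefSeq, both of WBcel235 (ce11), and positions are 1-based. All 736 small RNA genes had the same span in RefSeq, and 81 names differed, where the RefSeq name was used. A region took the class of its nearest gene. In replicate lists the strongest 772 regions stand in for the optimal list, and replicate ranks are those of the strongest region that overlaps by at least 1 bp. No test was made, because there is 1 group; shares have 95% Wilson intervals. The counting steps were tested on simulated data. The members, gene lists and searches were chosen with earlier results of these data known, and the upstream box searches, the 100 bp split, the snRNA words and pairs and the counts per chromosome were additions made once the data had been seen. Named genes were those of the 12 strongest optimal snoRNA regions, of every optimal snRNA and microRNA region, of the 3 strongest other regions per class and of listed families; others were chosen after their values were seen. Python 3.11.15, pandas 2.3.3, NumPy 2.4.6, SciPy 1.17.1 and Matplotlib 3.10.9 were used.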

Additional observations from a re-analysis of the deposited data

How the results depend on the processing

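Upstream regions had a higher optimal share than inside and downstream regions, and snoRNA regions a higher share than snRNA and microRNA regions, in all 11 settings that gave these shares. The order of intronic and free-standing regions changed, with intronic higher in 5 of 11. Of 125 alternative values 98 stayed within the interval of the value reported, or within 1.5 times for gene counts. The total share was 29.4% within 100 bp of the gene, 19.7% within 500 bp and 14.8% within 1000 bp. Upstream shares were 46.0%, 29.3% and 23.1% at these distances, snoRNA shares 26.6% and 19.1% at 500 and 1000 bp, and at 1000 bp intronic and free-standing shares were 14.6% and 16.3%. MicroRNA genes with an optimal summit numbered 4 within 100 and within 200 bp and 16 within 1000 bp. With the stronger 386 optimal regions as the threshold the total share was 19.1% and the intronic share 18.3%, with 5 snRNA and 5 microRNA genes. Among pooled regions found in both replicates the shares were 36.9% in total, 46.2% for snoRNA, 37.0% for snRNA, 48.9% upstream, 40% intronic and 35.6% free-standing, against 6.11% of all 12541 such regions (766 optimal). All 80 optimal regions are in this set, so these shares rise through the smaller totals alone. Leaving out a replicate gave 4.55% to 11.1% for microRNA regions (4 to 9 genes). It gave 22.8% to 23.5% in total, 28.1% to 33.0% for snoRNA and 19.5% to 20.5% for snRNA. By side it gave 31.9% to 36.7% upstream, 11.5% to 16.1% inside and 6.41% to 6.82% downstream. By placement it gave 20.1% to 22.9% for intronic, 18.4% to 24.1% for exon-overlapping and 25.2% to 25.5% for free-standing genes, and 58 to 60 snoRNA and 6 to 7 snRNA genes. The B box word lay within 25 bases of the summit in 1.25% of optimal and 2.81% of other regions, so it did not separate them at this distance. Within 50 bases the shares of optimal and other regions were 27.5% and 3.61%, and within 100 bases 36.2% and 7.23%. The A box word still differed within 25 bases, at 23.8% against 1.61%. No paired analysis was possible because there is 1 group. With depth unknown, counts of reads behind a region cannot be given, and optimal regions are only the strongest of 1 list. Regions outside the optimal list are not evidence of absent binding.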
